A study of Mus musculus with 6 samples.

Results

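Desmosomes are adhesive junctions that fasten the keratin filaments of neighbouring epithelial cells to each other. The genes described here encode their parts, and were taken as a fixed list of 9 symbols, Dsc2, Dsc3, Dsg2, Dsp, Jup, Pkp1, Pkp2, Pkp3 and Pkp4, matched to the array's probe sets through the platform annotation. All 9 had a single-gene probe set, out of 19937 genes tested in all. RNA was hybridised to 6 Affymetrix arrays, each in a single colour, from embryonic stem cells of the mouse kept in serum and LIF on feeder cells from DR4 mice. Of these, 3 arrays were of cells given CHIR99021, which blocks the kinase GSK3 so that β-catenin accumulates, and 3 were of cells given XAV939, which blocks tankyrase so that Axin accumulates and β-catenin is degraded. Exposure was 24 h, CHIR99021 was used at 3 µM, and the XAV939 dose stands as 3 µM in the sample labels but as 1 µM in the treatment protocol. Both treatments used the same knock-in V6.5 line, labelled Ctnnb1-BioFLneo;BirA, in which β-catenin itself carries a biotin and 3xFLAG tag. Arrays with neither compound were not analysed here, so a difference between the treatments cannot be assigned to either compound. Separate cultures are not stated for the replicates, so the p-values measure only the spread between these arrays, which may be technical.

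A desmosome is built in layers. Desmogleins (Dsg) and desmocollins (Dsc) are cadherins that bind across the gap between cells, plakoglobin (Jup) and the plakophilins (Pkp) are armadillo-repeat proteins that bind the cadherin tails on the inside, and desmoplakin (Dsp) links these to keratin filaments. Plakoglobin is a close relative of β-catenin and also takes part in adherens junctions. Dsc2 and Dsg2 are the desmosomal cadherins of simple epithelia and of heart muscle, while Dsc3 and the other desmogleins are best known from stratified epithelia such as skin.

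The arrays were closely alike, with median log2 values between 5.67 and 5.71 and correlations across genes of 0.994 to 0.995 between treatments and 0.997 to 0.999 within them. Principal component 1, with 60.5% of the variance, separated the treatments, and component 2, with 17.5%, set XAV939 replicate 1 apart from the other arrays. The cells carried the labelled identity, since Pou5f1, Sox2, Nanog, Utf1, Zfp42 and Dppa5a averaged a log2 level of 11.02 to 11.11 on the CHIR99021 arrays and 11.04 to 11.08 on the XAV939 arrays. The direct β-catenin target Axin2 had a log2 level of 7.48 ± 0.064 with CHIR99021 and 5.57 ± 0.19 with XAV939 (SD, n = 3 each).

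Of the 9 desmosome genes, 3 rose with CHIR99021 relative to XAV939, 0 fell and 6 did not pass the test. The genes that rose were the cadherins Dsc2 (2.82-fold) and Dsg2 (1.60-fold) and the keratin linker Dsp (1.51-fold). The armadillo proteins between them, plakoglobin and all 4 plakophilins measured, did not pass in either direction. The test was limma's moderated fit over all genes at a Benjamini-Hochberg adjusted p of 0.05. Of the desmosome genes 33.3% rose, against 5.31% of all genes, and 4.34% of all genes fell, 9.65% in either direction. With genes below the 50th percentile of level left out, 1765 genes still passed, so the share was higher among genes above it. Only 2 of the 9 desmosome genes lay below that level, and the list was chosen with earlier results of these data known. The same limit of level applies to the related lists below. Below the median lay 1 of 7 hemidesmosome genes, 2 of 11 adherens junction genes and 2 of 11 epithelial regulators. So did 2 of 9 desmosome-associated genes, 1 of 9 genes for modifying enzymes and receptors, and 6 of 12 keratins. At an unadjusted p under 0.05 the desmosome counts were the same, 3 higher and 0 lower. The median log2 difference, CHIR99021 minus XAV939 here and throughout, was 0.093 over the 9 genes and 0.0066 over all genes. In these bulk samples, fewer cells of a type and less RNA per cell cannot be told apart.

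**Figure D1:**
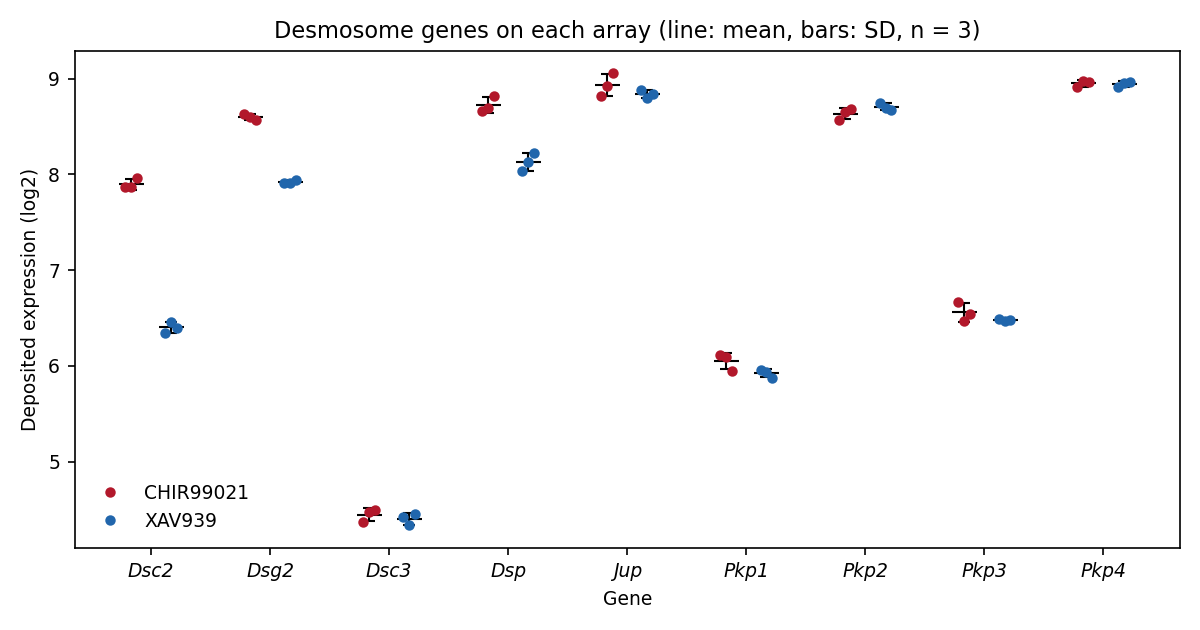
Deposited log2 expression of the 9 desmosome genes on each array, with CHIR99021 (red) left of XAV939 (blue). Points are arrays, the horizontal mark is the mean and the bars are the SD of 3 arrays. The treatments are clear of each other for Dsc2, Dsg2 and Dsp and overlap for the other 6 genes, and heights of different genes are not amounts that can be set against each other.

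Dsc2 (probe set 10457686, chromosome 18), a desmocollin, had log2 levels of 7.87, 7.86 and 7.97 on the CHIR99021 arrays and 6.34, 6.46 and 6.40 on the XAV939 arrays. The lowest CHIR99021 array lay far above the highest XAV939 array, and neither treatment had an array apart from its group. The difference was 1.50 ± 0.057 (SE, 95% interval 1.37 to 1.62, limma adjusted p = 1.95e-07). It was the 12th highest difference of the 19937 genes.

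Dsg2 (probe set 10454172, chromosome 18), the desmoglein that pairs with it in simple epithelia, stood at 8.63, 8.60 and 8.57 with CHIR99021, against 7.91, 7.91 and 7.95 with XAV939. Arrays of a treatment lay within 0.1 of each other and the treatments did not overlap. The difference was 0.68 ± 0.050 (SE, 95% interval 0.57 to 0.79, limma adjusted p = 1.54e-05), ranked 157th from the top.

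Dsc3 (probe set 10457669, chromosome 18), a desmocollin of stratified epithelia, stayed low on every array. Its log2 levels were 4.36, 4.47 and 4.50 with CHIR99021 and 4.42, 4.33 and 4.45 with XAV939. The treatments overlapped, the difference was 0.042 ± 0.059 (SE, limma adjusted p = 0.791), and its mean level lay at the 15.8th percentile of all genes on the deposited scale. No detection call was made, so a low value is not shown to be above background.

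Dsp (probe set 10404649, chromosome 13), the plakin that ties the plaque to keratin filaments, had log2 levels of 8.66, 8.69 and 8.82 with CHIR99021 and 8.03, 8.13 and 8.22 with XAV939. The lowest CHIR99021 array was again above the highest XAV939 array, although the spread within each treatment was wider than for Dsg2. The difference was 0.60 ± 0.066 (SE, 95% interval 0.45 to 0.74, limma adjusted p = 2.24e-04), ranked 213th from the top. Without both CHIR99021 replicate 3 and XAV939 replicate 1 the difference was 0.50, the smallest of its alternatives, and it still passed (adjusted p = 0.00119).

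**Figure D2:**
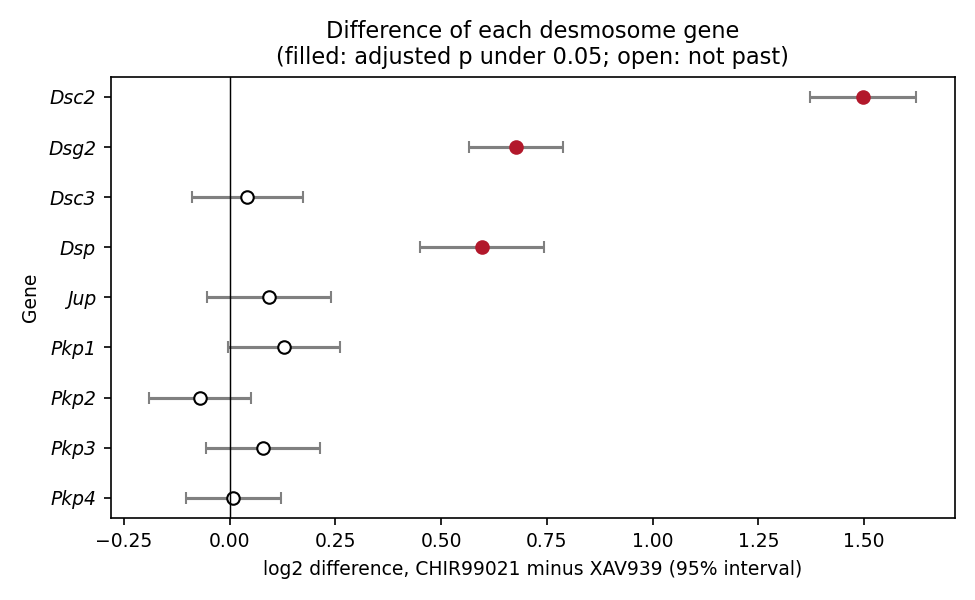
Log2 difference, CHIR99021 minus XAV939, of each desmosome gene, with the 95% interval of the limma fit (3 arrays per treatment, not adjusted for the number of genes). Filled points passed the adjusted threshold. Dsc2 lies at 1.50, Dsg2 at 0.68 and Dsp at 0.60, and the intervals of the 6 open points lie between -0.19 and 0.26.

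Jup (probe set 10391103, chromosome 11), encoding plakoglobin, had log2 levels of 8.82, 8.92 and 9.06 with CHIR99021 and 8.88, 8.80 and 8.84 with XAV939. CHIR99021 replicate 1 lay below XAV939 replicates 1 and 3, so the treatments overlapped. The difference was 0.093 ± 0.066 (SE, 95% interval -0.054 to 0.24, limma adjusted p = 0.519), and it was 0.032 without CHIR99021 replicate 3 and 0.15 without CHIR99021 replicate 1. Its relative Ctnnb1, encoding β-catenin, had a mean log2 level of 11.07 with CHIR99021 (SD 0.011, n = 3) and 11.05 with XAV939 (SD 0.067, n = 3). The treatments differed by 0.018 ± 0.054 (SE) for Ctnnb1, a value that turned negative in 3 alternatives.

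Pkp2 (probe set 10433887, chromosome 16), the plakophilin that recruits desmoplakin in simple epithelia and heart, had log2 levels of 8.57, 8.65 and 8.68 with CHIR99021 and 8.75, 8.70 and 8.67 with XAV939. The arrays overlapped, and its difference of -0.071 ± 0.054 (SE, 95% interval -0.19 to 0.049, limma adjusted p = 0.560) was the only negative value among the 9 genes. Pkp1 (probe set 10358124, chromosome 1), best known from skin, ranged from 5.95 to 6.11 with CHIR99021 and from 5.88 to 5.95 with XAV939. Its difference of 0.13 ± 0.059 (SE, limma adjusted p = 0.261) came closest to the threshold of the 6 genes that did not pass, with an unadjusted p of 0.0556. It was 0.19 without both CHIR99021 replicate 3 and XAV939 replicate 1 (adjusted p = 0.0564).

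Pkp3 (probe set 10558795, chromosome 7), the plakophilin with the widest set of desmosomal partners, ranged from 6.46 to 6.67 with CHIR99021 and from 6.47 to 6.49 with XAV939. The XAV939 arrays lay within the range of the CHIR99021 arrays, and the difference was 0.079 ± 0.061 (SE, limma adjusted p = 0.568), with 0.023 without CHIR99021 replicate 1 and 0.13 without CHIR99021 replicate 2. Pkp4 (probe set 10472212, chromosome 2), a plakophilin found at both desmosomes and adherens junctions, ranged from 8.91 to 8.98 with CHIR99021 and from 8.91 to 8.97 with XAV939. Its difference of 0.0088 ± 0.051 (SE, limma adjusted p = 0.962) was the smallest of the 9 genes in size.

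The 95% intervals of the 6 genes that did not pass ran from -0.19 for Pkp2 at the low end to 0.26 for Pkp1 at the high end. The lower bound of Dsp, the smallest of the 3 that rose, was 0.45. Replicates of these genes were tight, with an SD within a treatment of 0.011 to 0.12 (median 0.057) over the 9 genes. CHIR99021 replicate 3 was the highest array of its treatment for 5 of the 9 genes. The treatments did not overlap for 3 of the 9 genes, the same 3 and all with CHIR99021 higher, while 14.1% of all genes had CHIR99021 higher without overlap and 25.1% were without overlap either way.

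Sequence just upstream of the start was at hand for 3 of the 9 genes, Dsp, Jup and Pkp4, from RefSeq on build GRCm38.p6. The 250 bases before the annotated start of Dsp, which rose, and of Jup, which did not pass, are shown because both proteins sit in the same plaque. Capitals mark matches to the motifs searched on both strands. These were CTTTGA or CTTTGT for TCF/LEF factors, the partners of β-catenin on DNA, TTTATG for CDX factors, AACNNGTT for grainyhead-like factors, and GGGCGG, the GC box bound by Sp-family factors. Motif choice came after the values were known.
Dsp (chr13:38151044-38151293, plus strand): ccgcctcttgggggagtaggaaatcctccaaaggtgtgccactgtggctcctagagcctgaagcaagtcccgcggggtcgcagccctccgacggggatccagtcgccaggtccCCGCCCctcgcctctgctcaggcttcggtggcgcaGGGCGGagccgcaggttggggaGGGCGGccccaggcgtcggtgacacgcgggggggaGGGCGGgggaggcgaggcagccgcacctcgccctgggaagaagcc
Jup (chr11:100397791-100398040, minus strand): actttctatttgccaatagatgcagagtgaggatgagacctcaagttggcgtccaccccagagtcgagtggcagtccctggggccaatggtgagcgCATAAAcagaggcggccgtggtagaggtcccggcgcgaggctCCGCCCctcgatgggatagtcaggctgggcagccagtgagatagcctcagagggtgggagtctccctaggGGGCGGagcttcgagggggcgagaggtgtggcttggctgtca

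The Dsp window held 4 GC boxes and the Jup window held 2, beside 1 CDX match in Jup. Of the Pkp4 starts in the table, the first had 5 GC boxes, 3 of them overlapping, and the second had 0. A GC box was present in 32.7% of 32851 promoter windows of the same length. None of these windows held a TCF/LEF or a grainyhead-like match, which 27.6% and 3.64% of all windows did, and a CDX match was present in 10.8%. The Dsp window was 72.4% G and C and the Jup window 62%, against a median of 52.4% over all windows. Matches describe letters in these windows only.

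The 3 desmosomal cadherins of the list lie together on chromosome 18, in a cluster that runs from Dsc3 to Dsg2 in the RefSeq gene table and holds the other desmocollin and desmogleins between them. Of the 9 genes from Dsc3 to Dsg2, 7 were measured and 2 rose, Dsc2 and Dsg2, while 5.31% of all genes rose. Dsg1c, Dsg1b, Dsg4 and Dsg3, which lie between that pair, had differences from -0.13 to 0.065 and did not pass. Their mean log2 levels were 4.01 to 4.52, below the median of 6.07 over all genes. At an unadjusted p under 0.05 the count of these 4 genes was also 0, and Dsc1 and Dsg1a were not analysed here.

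Of the 10 nearest protein-coding genes on either side, 5 on each, 2 rose (5.31% of all genes did) and 0 fell (4.34% did). Cdh2, the N-cadherin gene, is the direct neighbour of Dsc3 in that order. Its mean log2 level was 7.74 on the 3 CHIR99021 arrays (SD 0.069) and 6.79 on the 3 XAV939 arrays (SD 0.037), and it rose by 0.95 ± 0.056 (SE, limma adjusted p = 3.26e-06). On the other side, beyond Ttr, the transthyretin gene, lies B4galt6, encoding lactosylceramide synthase, with 8.71 ± 0.11 with CHIR99021 and 7.80 ± 0.081 with XAV939 (SD, n = 3 each). Its difference was 0.91 ± 0.069 (SE, limma adjusted p = 1.83e-05). Ttr had a difference of 0.12 ± 0.055 (SE) and did not pass. Taf4b, Kctd1, Aqp4, Chst9 and Rnf125 had differences between -0.079 and 0.074. Trappc8 (-0.18, adjusted p = 0.0775) and Rnf138 (-0.25, adjusted p = 0.0702) did not pass, although some alternatives called them lower. Genes that rose thus lay among genes that did not pass, but levels differed between them. The measured genes from Dsc3 to Ttr that did not pass had mean levels at or below the 19.5th percentile of all genes. Cdh2, Dsc2, Dsg2 and B4galt6 lay at the 65.4th percentile or above. Farther out, Taf4b, Trappc8, Rnf125 and Rnf138 lay at the 68.4th percentile or above and did not pass.

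**Figure D3:**
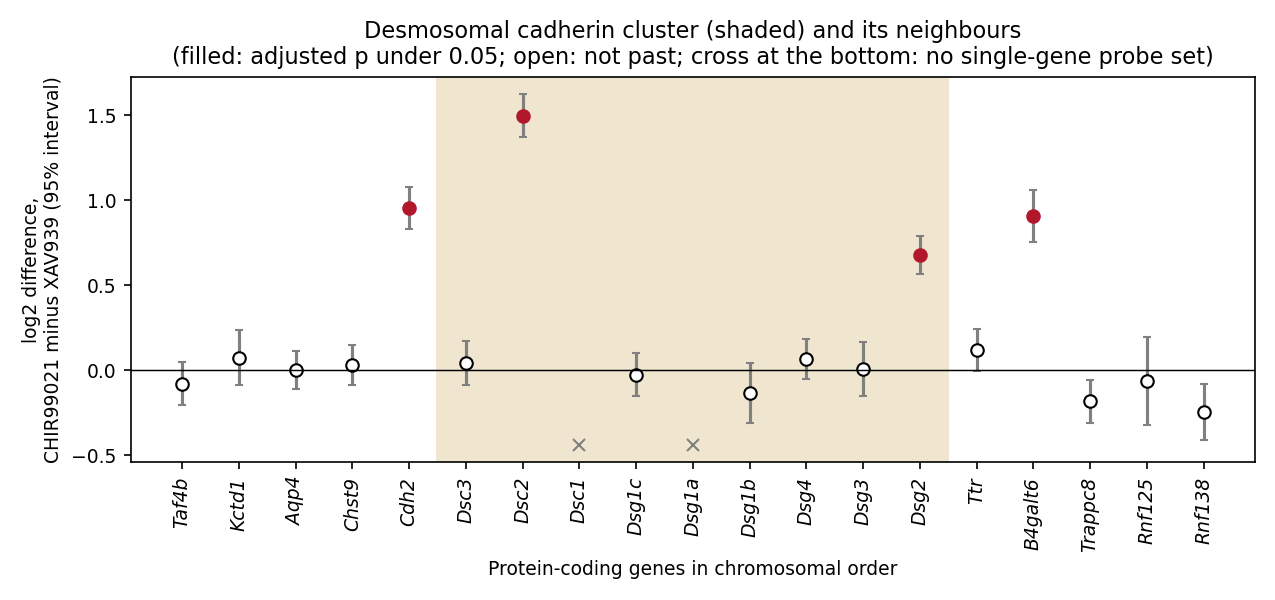
Log2 difference, CHIR99021 minus XAV939, of protein-coding genes in their order on the chromosome, with the desmosomal cadherin cluster shaded. Bars are 95% intervals of the limma fit and filled points passed the adjusted threshold. Dsc2 (1.50) and Dsg2 (0.68) stand above 0 within the cluster, Cdh2 (0.95) and B4galt6 (0.91) outside it, and the 4 desmogleins measured between Dsc2 and Dsg2 lie near 0.

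Keratins, the filaments that desmoplakin holds, were higher in 5 of 12 cases (41.7%, against 5.31% of all genes), and 0 fell (4.34% of all genes). Those that rose were Krt18 (1.19 ± 0.070), Krt19 (1.08 ± 0.057), Krt8 (0.93 ± 0.066) and Krt7 (0.88 ± 0.057), all of simple epithelia, and Krt14, a basal skin keratin (0.82 ± 0.071, SE throughout). Krt8 and Krt18 are partners in the same filament and had log2 levels of 12.03 ± 0.056 and 11.07 ± 0.057 with CHIR99021, against 11.10 ± 0.11 and 9.87 ± 0.13 with XAV939 (SD, n = 3 each). The list median was 0.049, since the 7 others lay between -0.13 and 0.056. Krt5, the usual partner of Krt14, differed by 0.056 ± 0.065 (SE).

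Of 9 proteins associated with desmosomes, 1 rose (11.1%, against 5.31% of all genes) and 0 fell (4.34% of all genes). Ppl, encoding periplakin, a relative of desmoplakin, rose by 0.27 ± 0.061 (SE, limma adjusted p = 0.0163). Its call was lost without CHIR99021 replicate 1 (adjusted p = 0.0751) or XAV939 replicate 3 (adjusted p = 0.0707). Perp, a membrane protein of desmosomes, had a difference of 0.066 ± 0.075 (SE), and was named after its value was seen. The list median was 0.031.

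Hemidesmosome genes, which fasten keratins to the basement membrane, rose in 3 of 7 cases (42.9%, against 5.31% of all genes). None fell (4.34% of all genes did), and the median was 0.16. Plec, encoding plectin, another relative of desmoplakin, rose by 0.45 ± 0.052 (SE, limma adjusted p = 2.80e-04), Itga6, an integrin chain, by 0.38 ± 0.059 and Lad1, an anchoring filament protein, by 0.31 ± 0.062. With all probe sets of the table tested, the call of Lad1 was lost (adjusted p = 0.0545).

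The adherens junction uses classical cadherins and catenins. Of its 11 genes, 1 rose (9.09%, against 5.31% of all genes) and 1 fell (4.34% of all genes), with a median of -0.0025. Ctnnd2, a δ-catenin related to the plakophilins, rose by 0.40 ± 0.058 (SE, limma adjusted p = 0.00134). Cdh1, the E-cadherin gene, was lower, with a mean of 10.77 (SD 0.041) on the 3 CHIR99021 arrays and 11.04 (SD 0.016) on the 3 XAV939 arrays, and fell by 0.26 on the log2 scale (SE 0.051, limma adjusted p = 0.00721). Cdh2, another classical cadherin, was not on this list and rose by 0.95, as given above with the genes beside the cluster.

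Among 11 regulators of epithelial genes, 3 rose (27.3%, against 5.31% of all genes) and 3 fell (4.34% of all genes), with a median of 0.027. The homeobox genes Cdx2 (1.63 ± 0.10) and Cdx1 (1.62 ± 0.18) rose, as did Elf3, an ETS factor of epithelia (0.45 ± 0.097, SE throughout). Esrp1, a splicing regulator of epithelial cells, fell by 0.78, and the grainyhead-like genes Grhl2 and Grhl1 fell by 0.40 and 0.23. Elf3 and Grhl1 were named after their values were seen. The call of Elf3 was lost without XAV939 replicate 3 (adjusted p = 0.0623), and that of Grhl1 when any array other than CHIR99021 replicate 3 was left out alone (adjusted p = 0.0504 to 0.150).

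Of 9 genes for enzymes and receptors that act on desmosomal proteins, 1 rose (11.1%, against 5.31% of all genes). None fell (4.34% of all genes did), and the median was 0.058. Egfr, a receptor kinase, rose by 0.20 ± 0.050 (SE, limma adjusted p = 0.0339), a call that was lost when any 1 array was left out (adjusted p = 0.0513 to 0.130). Gsk3b, encoding a kinase inhibited by CHIR99021, had a difference of 0.12 ± 0.075 (SE, limma adjusted p = 0.429), and was named after its value was seen.

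**Figure D4:**
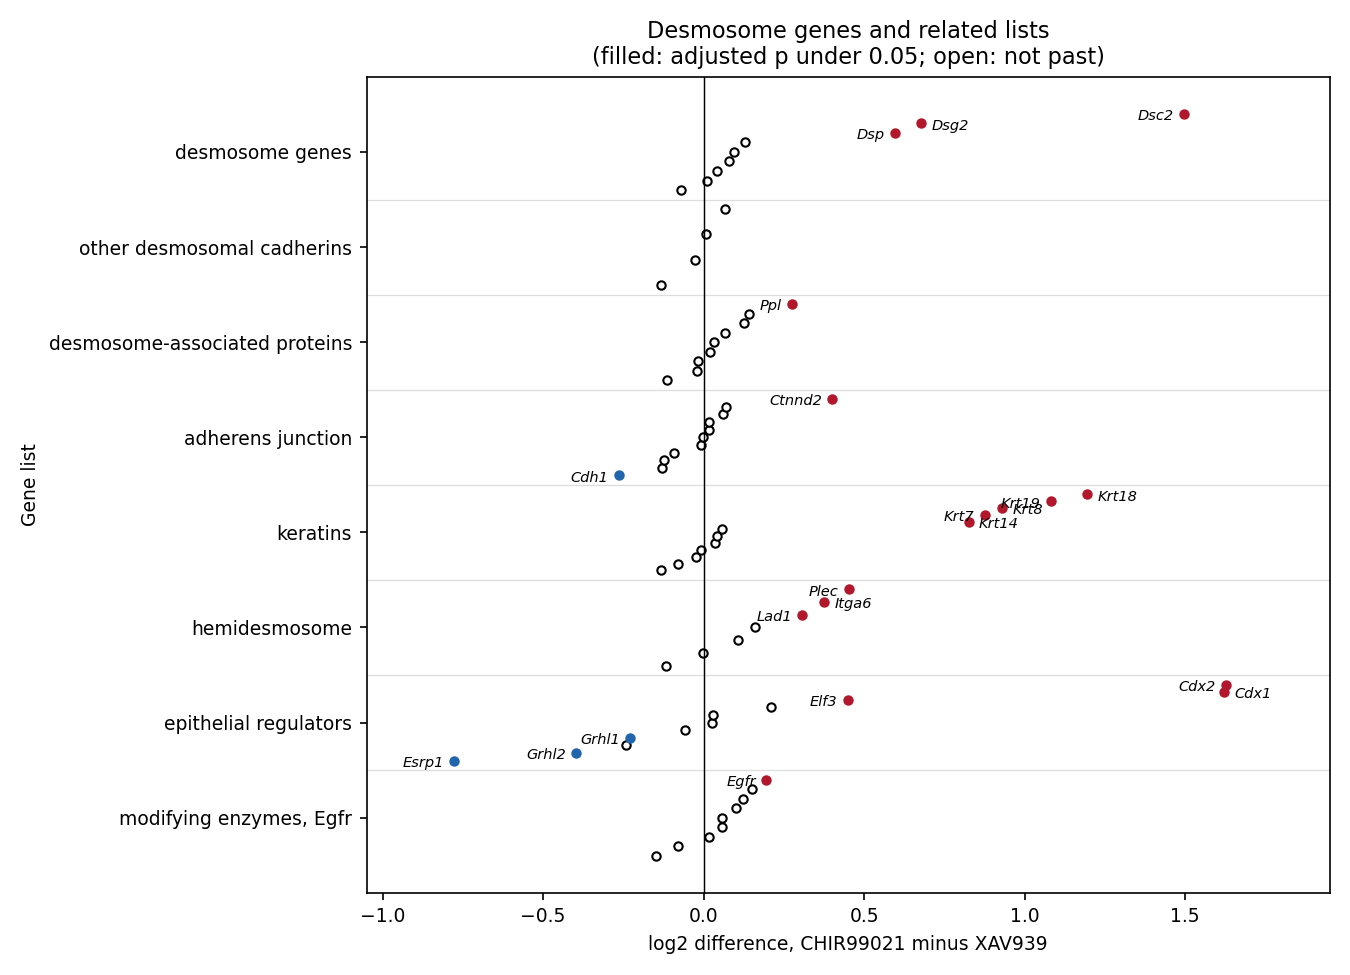
Log2 difference, CHIR99021 minus XAV939, of every measured gene in the desmosome list and in 7 lists of related genes. Filled red points passed the threshold upward, filled blue points downward, and open points did not pass. Points past the threshold in the desmosome and keratin rows lie to the right of 0, and those of the adherens junction and epithelial regulator rows lie on both sides.

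Genes that mark other cell types moved beside the desmosome genes. The counts below stand beside 5.31% of all genes that rose and 4.34% that fell. Of 13 feeder fibroblast markers, 6 rose and 0 fell, and their mean log2 level was 6.39 to 6.44 on the CHIR99021 arrays, against 6.10 to 6.16 on the XAV939 arrays. Col1a1, a type I collagen chain, rose by 1.05 ± 0.055, Tagln by 0.67 ± 0.069, Pdgfrb by 0.59 ± 0.054 and Acta2 by 0.35 ± 0.050 (SE). The fibroblast genes Postn, Lum, Dcn and Fap, which did not pass, lay at or below the 15.8th percentile of level. Thy1 (-0.079 ± 0.082), Col3a1 (0.096 ± 0.076) and S100a4 (0.072 ± 0.060, SE) did not pass either. Their levels lay at percentiles of 55.0, 54.3 and 31.8, beside 53.5 for Pdgfrb, which rose. The trophectoderm is an epithelium with desmosomes in the blastocyst, and of 8 of its markers 6 rose and 0 fell, with a mean log2 level of 8.13 to 8.21 with CHIR99021, against 7.32 to 7.41 with XAV939. They share Cdx2, Krt7, Krt8 and Krt18 with the lists above, and Eomes rose by 1.18 ± 0.079 and Tfap2c by 0.24 ± 0.054 (SE). Gata3 (0.26 ± 0.074, limma adjusted p = 0.0524) and Elf5 (0.014 ± 0.050, SE, limma adjusted p = 0.940) did not pass. The part of these cell types in the desmosome differences was not tested.

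For the counts of the next 4 marker lists too, 5.31% of all genes rose and 4.34% fell. Of 6 keratinocyte markers, Krt14 rose alone, and their mean was 5.26 to 5.33 with CHIR99021 and 5.11 to 5.14 with XAV939. Of 6 cardiomyocyte markers, Actc1 rose alone (1.13 ± 0.11, SE), while Tnnt2, Myh6, Myh7, Nppa and Ryr2 did not pass, and the mean was 5.84 to 5.91 with CHIR99021 and 5.66 to 5.79 with XAV939. Of 7 primitive endoderm markers, 0 rose and Dab2 fell by 0.35, with a mean of 5.33 to 5.43 with CHIR99021 and 5.35 to 5.53 with XAV939. Dab2 lost its call without CHIR99021 replicate 1 or 2, or without XAV939 replicate 1 or 2 (adjusted p = 0.0673 to 0.126). Among the 6 pluripotency markers, Nanog (0.49 ± 0.054) and Zfp42 (0.25 ± 0.059, SE) rose and Utf1 fell by 0.67. Zfp42 lost its call without CHIR99021 replicate 1 or 3 or XAV939 replicate 2 (adjusted p = 0.0690 to 0.0782).

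The genes whose pattern was most like that of Dsc2 were Emp1, a tetraspan membrane protein gene, Tfcp2l1, a transcription factor of naive pluripotent cells, Grsf1, an RNA-binding protein of mitochondria, Gprc5a, a retinoic acid-induced receptor gene, and Lhpp, a phosphatase gene. Likeness was the root mean square difference between the genes' values over the 6 arrays after each gene was centred on its own mean. It was 0.067 for Emp1, 0.075 for Tfcp2l1, 0.079 for Grsf1 and 0.092 for both Gprc5a and Lhpp, in log2 units. Emp1 had log2 levels of 7.98, 7.90 and 7.95 with CHIR99021 and 6.45, 6.41 and 6.52 with XAV939, beside 7.87, 7.86 and 7.97 and 6.34, 6.46 and 6.40 for Dsc2. Sp5, a transcription factor induced by β-catenin that binds GC boxes, rose by 1.35 ± 0.14 (SE) and spread more within treatments than Dsc2, from 7.42 to 7.92 with CHIR99021 and from 6.10 to 6.51 with XAV939.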

How the data were processed

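RNA of 3 CHIR99021 and 3 XAV939 samples was measured on 1 array each, and samples were grouped by their treatment label. The deposited table holds log2 expression of 34760 probe sets, made by the authors with RMA, per the submitters' processing notes. RMA normalises arrays by quantiles and compresses differences of weakly expressed genes. The sources used here give neither its version nor a genome build. The platform annotation named 1 gene for 21640 probe sets, several for 1321 and none for 11799. The probe set with the highest mean represented each gene, and each desmosome gene had 1. By Entrez ID 21553 of the single-gene probe sets matched RefSeq.

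CHIR99021 minus XAV939 was fitted with limma 3.58.1 (lmFit, eBayes) in R 4.3.3 over all 19937 genes, without further normalisation or filter, with Benjamini-Hochberg adjustment and a threshold of 0.05. Residual degrees of freedom were 4 and prior 6.15. The procedure was tested on simulated data. An exact test of 3 against 3 arrays cannot go below p = 0.1. The number of arrays limits the precision. Scanner files were not used here, so batches and detection were not tested. Replicate numbers are not said to pair arrays, and the main fit did not pair them. Deviations of same-numbered arrays from their treatment means correlated at -0.096, 0.060 and -0.14, those of differently numbered arrays at -0.13 to 0.18. With 3 arrays per treatment these values cannot show whether arrays were paired.

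The desmosome genes, related lists and tests were chosen with earlier results of these data known. Named were all 9 desmosome genes, Axin2, Sp5, Cdx1, Cdx2 and Ctnnb1, list members past the threshold (all where 5 or fewer, otherwise the 4 with the smallest p, and the 2 with the smallest p where none), cluster neighbours, and the 5 genes most like Dsc2, without predicted genes. Elf3, Grhl1, Perp and Gsk3b were added after their values were seen. Other list members are also named outside this rule, among them Krt5, Tfap2c, Gata3, Elf5, Thy1, Col3a1, S100a4 and the cardiomyocyte markers that did not pass. In the list without a call, the smallest unadjusted p were 0.126 (Dsg1b) and 0.252 (Dsg4). Mllt4, Pvrl2 and Plec1 are older symbols of listed genes and were not counted again. Plots were drawn with matplotlib 3.10.9.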

Additional observations from a re-analysis of the deposited data

How the results depend on the processing

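Under all 17 alternatives, 3 desmosome genes rose and 0 fell. The differences ranged from 1.43 to 1.53 for Dsc2, from 0.66 to 0.69 for Dsg2 and from 0.50 to 0.64 for Dsp, with adjusted p of at most 1.30e-04, 9.06e-04 and 0.00662. Dsc3, Jup, Pkp1, Pkp2 and Pkp3 kept their sign and did not pass wherever they were tested, with ranges of 0.0082 to 0.082, 0.032 to 0.15, 0.099 to 0.19, -0.094 to -0.039 and 0.023 to 0.13 in that order, each set by arrays left out; Dsc3 and Pkp1 lay below the 50th percentile of level and had no value under that filter. Pkp4 differed by -0.0040 when CHIR99021 replicate 2 was left out, by -0.0062 when XAV939 replicate 1 was, and by -0.015 when CHIR99021 replicate 3 and XAV939 replicate 1 both were, and its highest value with arrays left out was 0.030. Genes past the threshold numbered 1924 of all genes, 1118 at a threshold of 0.01, 2857 with array weights, and 1254 without CHIR99021 replicate 2 to 2325 without both arrays. With all probe sets tested, 1307 of 34760 passed, a count of probe sets that cannot be set beside the counts of genes. The replicate block gave 3 higher and 0 lower desmosome genes and 1578 genes in all; it lost the calls of Egfr, Dab2 and Grhl1 (adjusted p = 0.0860, 0.0534 and 0.0519) and no other call of a named gene. Testing all probe sets lost, of the 52, the calls of Lad1, Ppl, Egfr, Zfp42, Elf3, Grhl1 and Dab2 (limma adjusted p = 0.0545 to 0.136). Of the 101 other listed genes, 31 passed, and 23 to 36 over the alternatives. Over the 52 genes followed singly, 814 of 875 values kept direction and call, 41 lost the call, 8 gained it and 12 changed sign. The sign changed for Aqp4 with quantile normalisation repeated (-0.0022), for Ctnnb1 with array weights (-1.4e-05), and otherwise when arrays were left out, where the range was -0.019 to 0.016 for Aqp4 (-0.0051 without XAV939 replicate 1), -0.019 to 0.050 for Ctnnb1 (-0.017 without XAV939 replicate 1), -0.23 to 0.055 for Rnf125, -0.073 to 0.049 for Dsg3 (-0.013 without CHIR99021 replicate 3), -0.070 to 0.0035 for Dsg1c, -0.012 to 0.053 for Chst9 and -0.049 to 0.13 for Perp. None of these 7 genes passed under any alternative. Causes were not tested.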

Other observations

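Differences between 2 desmosome genes on the same array are given here as values. The 6 pairs were chosen after the values were seen. Dsc2 minus Dsg2 and Dsg2 minus Dsp set genes that both rose against each other, and the other pairs set a gene that rose against Jup or Pkp2. All restate the differences given above and are no independent evidence. Dsc2 minus Jup was -1.04 ± 0.071 on the log2 scale with CHIR99021 and -2.44 ± 0.10 with XAV939 (SD, n = 3 each), a shift of 1.40 between treatments. Dsg2 minus Jup shifted by 0.58, Dsp minus Jup by 0.50 and Dsp minus Pkp2 by 0.67. Dsc2 minus Dsg2 shifted by 0.82, with values of -0.60 to -0.76 on the CHIR99021 arrays and -1.45 to -1.57 on the XAV939 arrays. The exact two-sided permutation p of these 5 pairs was 0.1 (0.12 adjusted over the 6 pairs), which is the smallest that 3 against 3 arrays allow, so no pair could pass 0.05. Dsg2 minus Dsp was the sixth pair, with -0.12 ± 0.12 with CHIR99021 and -0.21 ± 0.076 with XAV939 (SD, n = 3 each), a shift of 0.081 (exact two-sided permutation p = 0.4).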
